A study of Mus musculus with 6 samples.

Results

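The miR-17, miR-18 and miR-19 seed families were examined in extracellular vesicles isolated from mouse brain. Vesicles are the small membrane particles that cells release, and they carry RNA. The 9 members were chosen by name, as the mature miRNAs of these families that arise from the miR-17~92 cluster and its paralogous clusters, and all 9 were among the 1926 miRNA rows that the authors listed. The rule itself uses names and no measured value, but it was set with earlier results of these data known. Small RNA libraries were made from vesicles of mice that had undergone status epilepticus, a prolonged seizure (SE-BDEV), and from control vesicles (CON-BDEV), with 3 libraries in each group. Each title names day 10 without a starting point. The sources used here do not give strain, age, sex or the way status epilepticus was induced. Per the labels' protocols, the kits were miRNeasy Micro for RNA, with DNase treatment, and QIAseq miRNA for the libraries. Separate animals are not named for the 3 libraries of a group, and the p-values below therefore reflect a spread between samples that may be technical.

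A miRNA guides the Argonaute protein to mRNAs, mostly through its seed, bases 2 to 8 from the 5′ end, and lowers the output of the mRNAs it pairs with. The miR-17~92 primary transcript gives several mature miRNAs, and the cluster has paralogs near the X-linked Mir363 gene and inside Mcm7, which encodes a subunit of the replicative helicase. The cluster is known for promoting proliferation and survival, through targets such as the cell cycle inhibitor Cdkn1a and the pro-apoptotic gene Bcl2l11. In the developing brain it is known for supporting neural progenitors.

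The mature sequences are shown because the family is defined by them and because several members differ by 1 or 2 bases. All 9 were found in RefSeq (GRCm38.p6) and are written 5′ to 3′, with the seed in capitals. Of these, 6 share the miR-17 seed:
mmu-miR-17-5p: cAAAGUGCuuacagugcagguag
mmu-miR-20a-5p: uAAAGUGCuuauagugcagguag
mmu-miR-20b-5p: cAAAGUGCucauagugcagguag
mmu-miR-93-5p: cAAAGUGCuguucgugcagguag
mmu-miR-106a-5p: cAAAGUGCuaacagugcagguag
mmu-miR-106b-5p: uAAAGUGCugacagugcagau
The miR-18 seed differs from it by 1 base and is carried here by 1 member:
mmu-miR-18a-5p: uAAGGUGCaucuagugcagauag
The unrelated miR-19 seed is carried by the remaining 2:
mmu-miR-19a-3p: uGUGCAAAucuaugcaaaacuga
mmu-miR-19b-3p: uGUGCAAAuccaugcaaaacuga

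Substitutions are given relative to miR-17-5p, counted from 1 at its 5′ end. miR-106a-5p differs by U10A alone. miR-20a-5p differs by C1U and C12U, and miR-20b-5p by U10C and C12U. The 4 changes of miR-93-5p, U10G, A11U, C12U and A13C, lie next to each other in the middle of the molecule, which sets it apart from the others. miR-106b-5p carries C1U, U10G and G20A over the 21 bases it has, and the other 8 members are 23 bases long. The change within the seed of miR-18a-5p is A4G. Among the 1679 mouse mature miRNAs in the RefSeq table, 7 carry AAAGUGC (0.417%), namely the 6 members and miR-6383, which was listed at 0 in every library. The sources used here do not say how reads were split between such near-identical sequences, so the separate values of miR-17-5p, miR-20a-5p, miR-20b-5p and miR-106a-5p are uncertain to that extent.

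The hairpins lie in 3 clusters. In GRCm38.p6 the miR-17~92 cluster spans chr14:115043671-115044506 on the plus strand, where 6 hairpins (Mir17, Mir18, Mir19a, Mir20a, Mir19b-1 and Mir92-1) each overlap an exon of at least 1 transcript of the long noncoding gene Mir17hg. The miR-106b~25 cluster spans chr5:138165321-138165818 on the minus strand within Mcm7. There Mir106b is intronic, while Mir93 and Mir25 overlap an exon of at least 1 Mcm7 transcript. The cluster from miR-106a to miR-363 spans chrX:52741693-52742567 on the minus strand, with 6 hairpins and no annotated gene on that strand around them. miR-19b-3p and miR-92a-3p are encoded on both chromosomes 14 and X, so their values cannot be assigned to 1 cluster. The submitters' processing notes name the build mm9, and no coordinate was converted.

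The 6 libraries ranged from 4400167 to 9391887 miRNA reads, with 532 to 631 miRNAs above 0 in each. Values are RPM, reads scaled to a common library total, and 3 reads amount to 0.319 to 0.682 RPM depending on the library. The members take 1 value per mature molecule and are 21 to 23 bases long, so no scaling by length was made. The libraries numbered 3 stood apart in both groups for miR-24-3p, which was at 3544 RPM in CON-BDEV 3, at 3128 RPM in SE-BDEV 3 and at 0 in the other 4. The neuronal markers, led by miR-124-3p, were present in every library, with 6 of 6 above 0 and a summed level of 24221 to 30510 RPM in CON-BDEV and 21671 to 40923 RPM in SE-BDEV.

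The family was represented mainly by miR-93-5p, a product of the Mcm7 locus. It made up 95.4% of the reads of all 9 members in CON-BDEV 1 (Wilson 95% interval 94.6% to 96.0%, which covers counting error only). In the other libraries its share was 96.9% and 95.7% in CON-BDEV and 97.0%, 96.4% and 95.4% in SE-BDEV. Together the members took 0.0819% to 0.0878% of all miRNA reads in CON-BDEV and 0.112% to 0.156% in SE-BDEV. Of the 9 members, 7 were above 0 in at least 1 library, 6 in all 6 libraries, and 2 reached the mean of 10 RPM required for the main test. Both of those, miR-93-5p and miR-20a-5p, were higher in every SE-BDEV library than in any CON-BDEV library, and neither passed the adjusted threshold. The same separation was seen in 10.7% of the 308 miRNAs tested. miR-20a-5p reached that mean only through its SE-BDEV libraries, so its separation cannot be weighed against this share.

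miR-93-5p ranked 47th by mean RPM among all miRNAs. It was at 781, 843 and 841 RPM in CON-BDEV 1, 2 and 3 and at 1513, 1110 and 1069 RPM in SE-BDEV 1, 2 and 3. The control libraries lay close together, all SE-BDEV libraries were above them, and SE-BDEV 1 was the highest. Group means were 822 ± 35.2 and 1231 ± 245 RPM (SD, n = 3 each), a 1.50-fold difference of means. On the log2(RPM + 1) scale the difference, SE-BDEV minus CON-BDEV, was 0.56 (standard error 0.257, 95% interval 0.00987 to 1.12), with unadjusted p = 0.0466 and Benjamini-Hochberg adjusted p = 0.438 in limma over 308 miRNAs. Without SE-BDEV 1 the difference was 0.41. In such bulk vesicle libraries, more vesicles from a cell type and more of a miRNA per vesicle cannot be told apart.

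miR-20a-5p, from the chromosome 14 cluster, was at 8.64, 9.08 and 9.73 RPM in CON-BDEV 1, 2 and 3. It was at 21.2, 17.2 and 28.6 RPM in SE-BDEV 1, 2 and 3, so that the lowest SE-BDEV library was above the highest control. These values rest on 38, 74 and 64 reads in CON-BDEV and 199, 86 and 193 reads in SE-BDEV. Counting error alone gave exact Poisson 95% intervals that reached up to 12.4 RPM in CON-BDEV 3 and down to 13.8 RPM in SE-BDEV 2, the nearest bounds of the groups. Means were 9.15 ± 0.549 and 22.3 ± 5.78 RPM (SD, n = 3 each), a 2.44-fold difference. The log2 difference was 1.17 (standard error 0.342, 95% interval 0.43 to 1.91), with unadjusted p = 0.00457 and adjusted p = 0.237 in limma over 308 miRNAs. By unadjusted p it was the 5th of the 308, and 7 tested miRNAs had a larger difference toward SE-BDEV. Its control mean was below 10 RPM, so it entered this test only through its SE-BDEV libraries. With a mean of 1 RPM or more required instead, which it met in both groups, its adjusted p was 0.317 over 580 miRNAs.

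As background, 3 of 308 miRNAs (0.974%) passed an adjusted p of 0.05 in either direction, and none of the 2 tested members was among them. With the replicate number as a block 3.25% passed, 10 of the 308 and neither member, but blocked fits to other selections passed 4 of 301 (miRNAs above 0 in all libraries) and 3 of 580 (a mean of 1 RPM). An unadjusted p under 0.05 in limma was reached by 10.4% of the 308 miRNAs in either direction and by 8.12% with SE-BDEV higher. Both tested members reached it too, while 57.5% of the 308 had a higher mean in SE-BDEV. miR-20a-5p was among the 308 only through its SE-BDEV libraries, so counting it beside these shares gives no support. For miR-93-5p an unadjusted p under 0.05 was kept in 10 of 22 alternative settings, and it was 0.078 with the replicate block, 0.0707 with median-of-ratios scaling and 0.179 without SE-BDEV 1 in limma. For miR-20a-5p it was kept in 21 of 21. Complete separation with SE-BDEV above CON-BDEV was seen in 10.7% of the 308 miRNAs and the opposite in 5.52%. The authors' deposited table gave miR-20a-5p a log2 fold change of 1.19 (standard error 0.386) with an adjusted p of 0.0946, and miR-93-5p 0.50 (standard error 0.21) with an adjusted p of 0.369. There, of the 625 miRNAs with an adjusted p, 1.12% were under 0.05 and 2.40% were under 0.10.

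**Figure D1:**
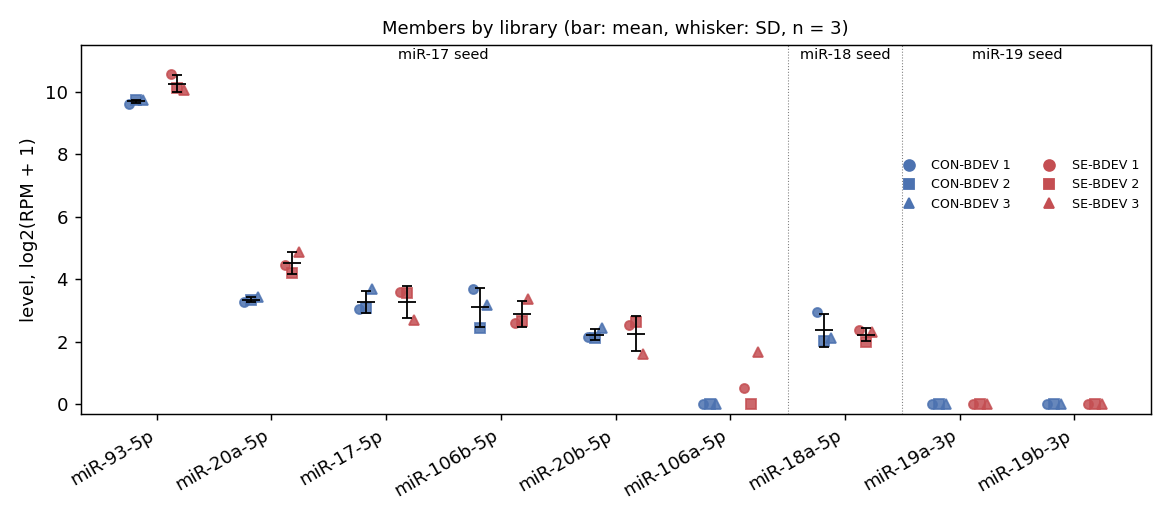
Levels of the 9 members as log2(RPM + 1), 1 point per library (blue CON-BDEV, red SE-BDEV, shape for the library number), grouped by seed. Bars and whiskers are mean and SD of 3 libraries and are left out for members listed at 0 in any library. miR-93-5p lies far above the rest, and it and miR-20a-5p have no overlap between the groups.

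The other members were near or below 10 RPM and were read from the same model fitted at a lower filter, to the 580 miRNAs whose mean reached 1 RPM. Of the 6 members in that fit, 4 had a higher mean and 2 a lower mean in SE-BDEV, where 56.0% of all 580 were higher. None was among the 3 of 580 (0.517%) that passed an adjusted p of 0.05, and 2, again miR-20a-5p and miR-93-5p, had an unadjusted p under 0.05. Their median log2 difference was 0.0206, and that of all 580 was 0.0606. Separation with SE-BDEV above CON-BDEV was seen in 2 of the 6 members and in 9.14% of the 580, and the opposite in 0 of the 6 and in 4.31%.

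miR-17-5p, for which the cluster is named, was at 7.27, 7.49 and 11.9 RPM in CON-BDEV 1, 2 and 3 and at 11.0, 10.8 and 5.48 RPM in SE-BDEV 1, 2 and 3. The lowest value of all was in SE-BDEV 3 and the highest in CON-BDEV 3, so the groups overlapped. The log2 difference was 0.00700 (95% interval -0.82 to 0.84) with an adjusted p of 0.992 in limma. That interval is wide and holds differences of either sign, so it does not show that the groups are alike. Without both libraries numbered 3 the difference was 0.50, with an adjusted p of 0.773. miR-17-5p and miR-20a-5p come from the same primary transcript and differ by 2 bases, yet their ratio was not constant. miR-20a-5p was 0.821 to 1.21 times miR-17-5p in CON-BDEV and 1.59, 1.93 and 5.22 times in SE-BDEV 2, 1 and 3. The 2 ranges did not overlap, and the exact two-sided permutation test gave p = 0.1, the smallest that 3 against 3 libraries can give (adjusted p = 0.267 over the 8 ratios tested).

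miR-20b-5p, from the X-linked cluster, followed a similar order of libraries, with 3.41, 3.31 and 4.41 RPM in CON-BDEV 1, 2 and 3 and 4.79, 5.20 and 2.07 RPM in SE-BDEV 1, 2 and 3. SE-BDEV 3 was again the lowest and the groups overlapped. Its log2 difference was 0.0342 (95% interval -0.94 to 1.01), with an adjusted p of 0.981 in limma. miR-106a-5p, which differs from miR-17-5p by 1 base, was at 0 in the table for every control library and for SE-BDEV 2. It was at 0.426 RPM (4 reads) in SE-BDEV 1 and 2.22 RPM (15 reads) in SE-BDEV 3, the library in which miR-17-5p and miR-20b-5p were lowest. It was below the level needed for a test. The authors' deposited table gave it a log2 fold change of 4.74 with a standard error of 3.92 and no adjusted p.

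The 4 near-identical sequences, miR-17-5p and those 1 or 2 bases away from it (miR-20a-5p, miR-20b-5p and miR-106a-5p), were summed. A read assigned to the wrong sequence among the 4 would then not matter. miR-106b-5p was left out with 3 substitutions against miR-17-5p, as many as miR-20a-5p has against miR-106a-5p. The set of 4 was chosen after the values were seen. The sums were 19.3, 19.9 and 26.0 RPM in CON-BDEV 1, 2 and 3 and 37.4, 33.2 and 38.4 RPM in SE-BDEV 1, 2 and 3. All SE-BDEV libraries were above all controls, with means of 21.7 ± 3.70 and 36.3 ± 2.73 RPM (SD, n = 3 each). Of the 4, only miR-20a-5p had no overlap between the groups on its own. miR-17-5p, miR-20b-5p and miR-106a-5p each overlapped, so the separation of the sum does not show a rise shared by the 4. The SD of the sum was below that of miR-20a-5p alone in SE-BDEV (5.78 RPM) and above it in CON-BDEV (0.549 RPM). The sum over all 9 members, which is mostly miR-93-5p, was 819 to 878 RPM in CON-BDEV and 1121 to 1559 RPM in SE-BDEV. Without miR-93-5p the sums were 27.4 to 38.0 and 41.6 to 51.7 RPM, and miR-20a-5p was the most abundant member still included.

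**Figure D2:**
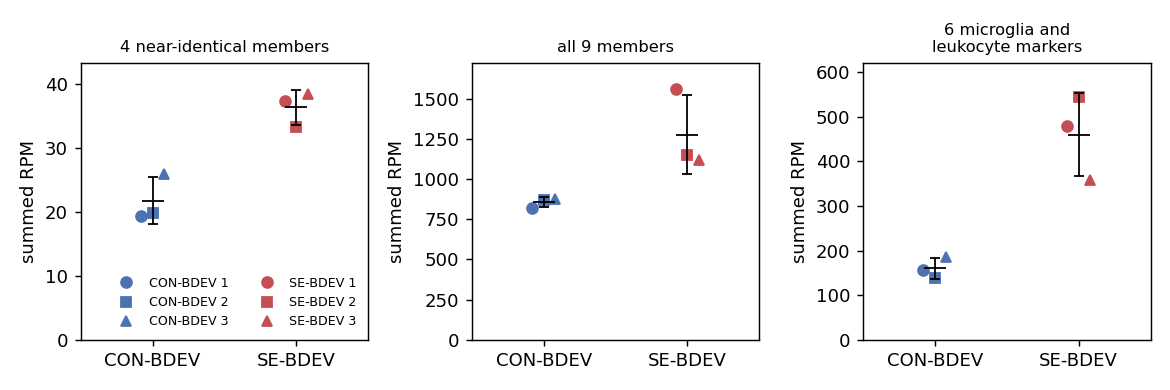
Summed RPM per library for the 4 near-identical members (left), all 9 members (middle) and 6 microglia and leukocyte markers (right), with mean and SD of 3 libraries. Each axis starts at 0, and in all 3 panels every SE-BDEV point is above every CON-BDEV point. Among the markers in the right panel, miR-150-5p had a lower mean in SE-BDEV.

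Summed levels of some cell type markers differed between the groups beside these members. The 6 microglia and leukocyte markers, led by miR-155-5p and none at 0, summed to 139 to 186 RPM in CON-BDEV and 358 to 543 RPM in SE-BDEV. Among them, miR-155-5p and miR-142a-5p were called in these same data (log2 differences of 2.65 and 1.85). miR-150-5p went the other way (-0.27), and the remaining markers had a higher mean in SE-BDEV. Of the 3 oligodendrocyte markers, led by miR-338-3p, miR-219a-5p was listed at 0 in every library, and the sums were 137 to 170 and 198 to 296 RPM. The sums of the groups did not overlap in either list. The oligodendrocyte sum was mostly miR-338-3p (mean 171 RPM, log2 difference 0.72), with miR-219a-2-3p at a mean of 32.6 RPM and a difference of 0.19. The part of these marker lists in the values of miR-93-5p and miR-20a-5p was not tested. The 2 endothelial markers, led by miR-126a-3p and both above 0, gave overlapping sums of 2828 to 4276 and 4116 to 6342 RPM. The 4 choroid plexus and ependymal markers, led by miR-204-5p and none at 0, gave 310 to 718 and 547 to 793 RPM, which overlapped too. Of the red cell markers, every library had zeros for miR-451a, miR-144-3p and miR-144-5p, and the merged row of miR-486a-5p and miR-486b-5p gave overlapping values of 83.6 to 199 and 102 to 111 RPM.

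miR-106b-5p, which shares a cluster with miR-93-5p, was at 11.8, 4.42 and 8.06 RPM in CON-BDEV 1, 2 and 3 and at 5.11, 5.40 and 9.33 RPM in SE-BDEV 1, 2 and 3. CON-BDEV 1 was the highest of all and the groups overlapped. The log2 difference was -0.21 (95% interval -1.13 to 0.70), with an adjusted p of 0.928 in limma. It was 0.08 without CON-BDEV 1. Although both are processed from the Mcm7 locus, miR-93-5p was 66.1 to 191 times miR-106b-5p in CON-BDEV and 115 to 296 times in SE-BDEV. These ratios overlapped (exact two-sided permutation p = 0.2, adjusted p = 0.4).

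miR-18a-5p, the only member with the miR-18 seed, was at 6.82, 3.07 and 3.34 RPM in CON-BDEV 1, 2 and 3 and at 4.15, 3.00 and 4.00 RPM in SE-BDEV 1, 2 and 3. CON-BDEV 1 was again the highest library and the others lay close together. The log2 difference was -0.14 (95% interval -1.09 to 0.80), with an adjusted p of 0.948 in limma, and it was 0.16 without CON-BDEV 1. miR-18b-5p, which shares its seed and comes from chromosome X, was listed at 0 in every library. miR-19a-3p and miR-19b-3p, the members with the miR-19 seed, were listed at 0 in all 6 libraries. Their neighbours in the same primary transcript, miR-17-5p, miR-18a-5p, miR-20a-5p and miR-92a-3p, were above 0 in all 6. Whether the zeros stand for absent molecules or for values not retained before deposit cannot be told from the table. No value of 1 read is listed anywhere in it, but that concerns single reads only. miR-24-3p, at 3544 and 3128 RPM in the libraries numbered 3, was also listed at 0 in every other library.

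By mean RPM over the 6 libraries the order was miR-93-5p (1026), miR-20a-5p (15.7), miR-17-5p (8.98), miR-106b-5p (7.36), miR-18a-5p (4.06), miR-20b-5p (3.87) and miR-106a-5p (0.441). Among neighbours in this order, miR-93-5p and miR-20a-5p were the pair whose ranges lay apart. miR-20a-5p was above miR-17-5p in 5 of 6 libraries and miR-17-5p above miR-106b-5p in 4. miR-106b-5p was above miR-18a-5p in 6 of 6, with overlapping ranges, miR-18a-5p above miR-20b-5p in 2, and miR-20b-5p above miR-106a-5p in 5. The place of miR-20a-5p reflects its SE-BDEV values, since its control mean of 9.15 RPM lay close to the 8.87 RPM of miR-17-5p and the 8.10 RPM of miR-106b-5p.

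**Figure D3:**
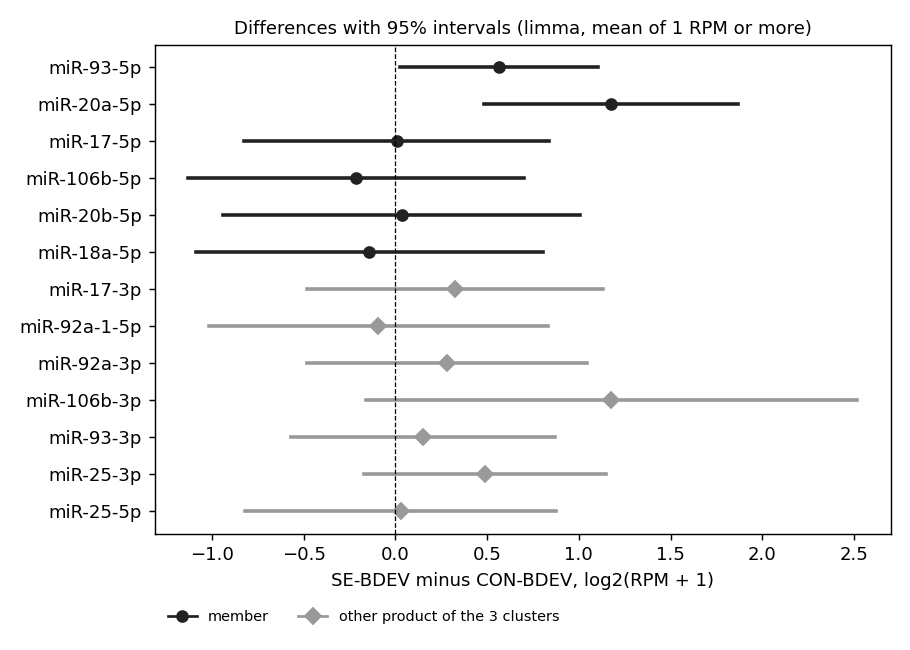
Differences in log2(RPM + 1), SE-BDEV minus CON-BDEV, with 95% limma intervals from the fit to 580 miRNAs, for 6 members (black) and 7 other products of the 3 clusters (grey). The intervals of miR-93-5p and miR-20a-5p lie above 0, and those of the other 11 include it.

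The 3 clusters give 19 other mature products, among them the opposite arms of the members' hairpins. Of these, 10 were listed at 0 in every library, 7 had a mean of 1 RPM or more and 4 a mean of 10 RPM or more. Of the 7, 6 had a higher and 1 a lower mean in SE-BDEV, where 56.0% of all 580 were higher, and none reached an unadjusted or adjusted p under 0.05 in limma. Their median log2 difference was 0.28, beside 0.0606 for all 580. SE-BDEV values lay wholly above CON-BDEV values for 2 of the 7, miR-25-3p and miR-106b-3p, and for 9.14% of the 580. miR-106b-3p was listed at 0 in CON-BDEV 1, at 1.23 and 3.04 RPM in CON-BDEV 2 and 3, and at 3.73, 3.40 and 4.00 RPM in SE-BDEV 1, 2 and 3. Its separation is narrow and rests in part on few reads.

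miR-25-3p, whose seed is of the miR-92 family, was at 18.9, 20.4 and 29.3 RPM in CON-BDEV 1, 2 and 3 and at 34.0, 32.0 and 29.8 RPM in SE-BDEV 1, 2 and 3. The groups were separate only narrowly, between CON-BDEV 3 and SE-BDEV 3. Its log2 difference was 0.49 (95% interval -0.18 to 1.16), with an adjusted p of 0.571 in limma over 308 miRNAs. miR-93-5p was 28.7 to 41.4 times miR-25-3p in CON-BDEV and 34.7 to 44.5 times in SE-BDEV (exact two-sided permutation p = 0.8, adjusted p = 0.8). The ratio of these 2 neighbours thus overlapped between the groups.

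miR-92a-3p, the last product of the miR-17~92 transcript, was at 21.8, 23.7 and 33.1 RPM in CON-BDEV 1, 2 and 3 and at 38.0, 40.2 and 20.4 RPM in SE-BDEV 1, 2 and 3. Like miR-17-5p and miR-20b-5p it was lowest in SE-BDEV 3, and the groups overlapped. The log2 difference was 0.28 with an adjusted p of 0.782 in limma. miR-363-3p, the other miR-92 family product of the X-linked cluster, was listed at 0 in every library. Sums over a cluster depend on where miR-92a-3p is placed. With it, the miR-17~92 cluster gave 57.7 to 77.7 RPM in CON-BDEV and 82.2 to 106 RPM in SE-BDEV. Without the products encoded on both chromosomes, a choice made after the values were seen, it gave 34.0 to 52.3 and 50.4 to 67.5 RPM, which overlapped. The X-linked cluster gave overlapping sums of 25.2 to 37.5 and 26.1 to 45.4 RPM with miR-92a-3p. Without those products its sums were 3.31 to 4.41 and 5.20 to 5.63 RPM, which did not overlap. That separation rests on few reads. In SE-BDEV 3 the sum held miR-106a-5p at 2.22 RPM (15 reads) and miR-363-5p at 1.33 RPM (9 reads). miR-363-5p was above 0 in that library alone, and miR-20b-5p by itself overlapped between the groups. The 6 products of the miR-106b~25 cluster gave 853 to 901 and 1135 to 1587 RPM, mostly miR-93-5p.

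The arms of a hairpin are usually kept unequally, since 1 strand is loaded into Argonaute and the other is degraded. From Mir93 the 5p arm was 70.1 to 102 times the 3p arm in CON-BDEV and 111 to 124 times in SE-BDEV, without overlap (exact two-sided permutation p = 0.1, the smallest possible, adjusted p = 0.267). The 3p arm itself ranged from 8.21 to 11.1 RPM in controls and from 8.59 to 13.1 RPM in SE-BDEV. From Mir17 the 3p arm was the more abundant in 6 of 6 libraries. Its sequence shares no seed with the members:
mmu-miR-17-3p: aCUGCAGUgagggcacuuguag
miR-17-3p was at 19.1, 11.0 and 12.8 RPM in CON-BDEV 1, 2 and 3 and at 25.8, 11.8 and 18.1 RPM in SE-BDEV 1, 2 and 3, with a log2 difference of 0.32 and an adjusted p of 0.773 in limma. The ratio of miR-17-5p to miR-17-3p was 0.381 to 0.929 in CON-BDEV and 0.303 to 0.915 in SE-BDEV (exact two-sided permutation p = 0.7, adjusted p = 0.8). From Mir25 the annotated 5p arm was at 30.2, 13.9 and 11.4 RPM in CON-BDEV 1, 2 and 3 and 18.3, 19.6 and 14.4 RPM in SE-BDEV 1, 2 and 3. It exceeded miR-25-3p in CON-BDEV 1 alone, the library that was also highest for miR-18a-5p and miR-106b-5p.

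**Figure D4:**
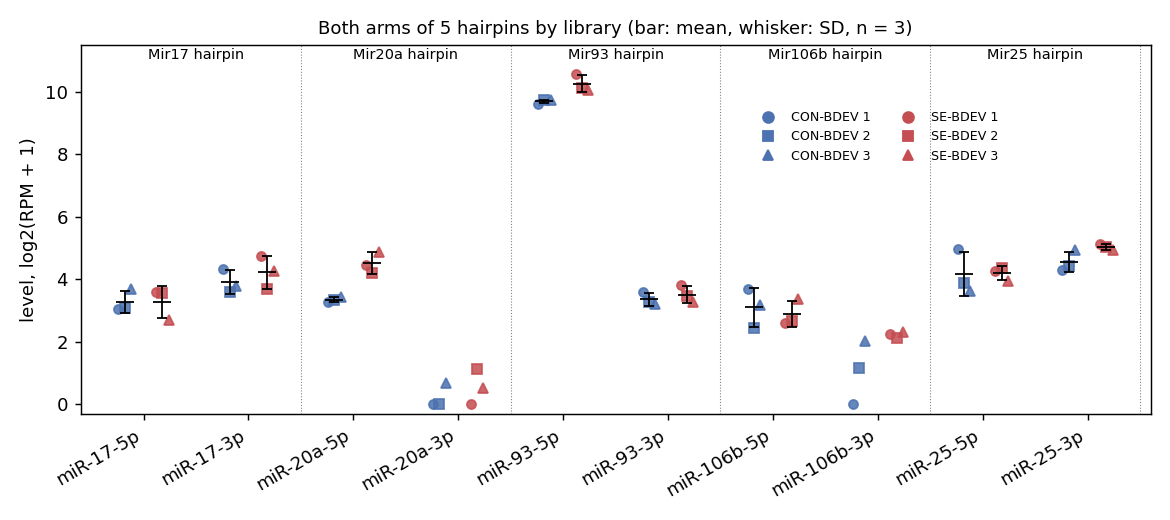
Levels of both arms of 5 hairpins as log2(RPM + 1), 1 point per library, with mean and SD of 3 libraries for products above 0 in every library. The 5p arm dominates for Mir93 and Mir20a, and the 3p arm of Mir17 is above its 5p arm in every library.

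The tested miRNAs outside the family whose values over the 6 libraries were most like the mean standardised profile of miR-93-5p and miR-20a-5p were miR-132-5p, miR-15a-5p and miR-15b-5p. Pearson's r with that profile was 0.979, 0.971 and 0.941, given as a description over 6 libraries that share their groups. Both miRNAs in the profile were higher in SE-BDEV, so miRNAs picked for a high r tend to be higher there too. The values below are therefore no independent likeness. miR-132-5p, an arm of the activity-dependent Mir132 hairpin, had means of 91.6 ± 17.5 RPM in controls and 192 ± 33.7 RPM after status epilepticus. miR-15a-5p was at 31.0 ± 3.67 and 48.8 ± 3.73 RPM, and miR-15b-5p at 42.6 ± 1.79 and 81.1 ± 17.1 RPM (SD, n = 3 each). None of the 3 passed the threshold in limma, with adjusted p of 0.237, 0.438 and 0.344.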

How the data were processed

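The members and lists were chosen with earlier results of these data known. The authors deposited RPM values for 1926 miRNAs in 6 libraries and a table of their own comparison, which holds p-values (raw and adjusted), a test score, log2 fold changes and a mean normalized signal per miRNA. Its tool was DESeq2 and the build mm9, per the submitters' processing notes. The sources used here do not name the aligner, the counting tool or any use of molecular identifiers. Within each library all RPM values were whole multiples of 1 step (largest deviation 4.5e-06 step), taken as 1 read. The smallest value was 2 steps, so no count model was run, and Poisson and Wilson intervals cover counting error only.

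Groups were compared on log2(RPM + 1) for 308 miRNAs whose mean over all libraries reached 10 RPM. The tool was limma 3.58.1 (R 4.3.3, statmod 1.5.0), two-sided, with its trend and robust options. Adjustment was by Benjamini-Hochberg, and miRNAs were called under 0.05. Members below that mean were read from the same fit at a mean of 1 RPM or more (580 miRNAs). A log2(RPM + 1) difference understates changes at low levels. Ratios between miRNAs were compared with an exact permutation test. All members were named, with other products of the clusters from a mean of 10 RPM, and the 3 tested miRNAs most correlated with the tested members. Alternatives covered pseudocount, filter, scaling, weights, the replicate block and each library left out.

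The groups share replicate numbers, and deviations from the group means correlated at 0.216, 0.202 and 0.462 for pairs 1, 2 and 3, above the bound of 0.1 for treating numbers as pairs. Without miR-24-3p the correlations were -0.06, -0.06 and -0.08, and the labels do not describe pairs.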

Additional observations from a re-analysis of the deposited data

How the results depend on the processing

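No member was called under any of the 22 alternatives. miR-93-5p was higher in SE-BDEV in all 22, with log2 differences of 0.41 to 0.69 and adjusted p of 0.195 (array weights) to 0.753, and miR-20a-5p in all 21 that tested it, with 0.74 to 1.34 and adjusted p of 0.0576 (array weights) to 0.699. Without both libraries numbered 3, chosen after seeing the data, they were 0.67 and 1.03, each with an adjusted p of 0.571. The count of miRNAs called among all tested was 3, and it was 1 with a filter of 100 RPM, 6 with array weights, 7 in the authors' deposited table and 10 with the replicate block, which called no member. With the block it was 4 of 301 for miRNAs above 0 in all libraries and 3 of 580 with a filter of 1 RPM, both chosen after seeing the data. It was 2 to 8 with 1 library left out, and 8 without CON-BDEV 2. The cause was not tested.

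Members below 10 RPM had differences whose sign was not fixed. miR-17-5p was at -0.0542 with median-of-ratios scaling, -0.0697 with totals without the 10 most abundant, -0.0152 with quantile normalization, -0.0153 in the authors' deposited table, and -0.14 to 0.30 with 1 library left out. miR-20b-5p was at -0.0159, -0.0259 and -0.201 under those 3 scalings and -0.15 to 0.36 with 1 library left out. miR-106b-5p ranged from -0.54 to 0.0781 and miR-18a-5p from -0.31 to 0.16 with 1 library left out, and miR-18a-5p was at 0.0926 with array weights. Median-of-ratios scaling moved the median of all 308 differences from 0.0606 to -0.00776 and the share that was higher from 57.5% to 49.0%. The planned edgeR and DESeq2 fits were not run, since single reads are not listed. Depth limits all members but miR-93-5p, which rest on 14 to 199 reads in a library where above 0 in all.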
